A study of Caenorhabditis elegans with 20 samples.

Results

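The comparison described here was between whole Caenorhabditis elegans of the strain metr-1(ww52);Δnhr-10, called the mutant below, and wild type animals, both fed the Escherichia coli HT115 clone for nhr-114 RNAi. It rests on 4 of the 20 libraries of the series, 2 for each strain, chosen by their labels. The mutant carried metr-1(ww52), an allele from a chemical mutagenesis screen, together with the deletion nhr-10(tm4695), so the effects of the 2 lesions cannot be told apart, and it is 1 strain with 1 allele. By their labels all animals, wild type included, carried the integrated transgene wwIs24, which holds the acdh-1 promoter driving GFP and an unc-119(+) rescue gene. Animals were synchronised, grown for 48 hours with 20 nM vitamin B12, and collected as at least 200 staged animals per sample, in biological duplicate. The labels give the stage as L4, and the methods, where they state it, as late L4 to early young adult. The other libraries of this experiment, the same strains on vector and a Δmetr-1 strain on both clones, are used only where the strain difference on nhr-114 RNAi is set against them.

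The Met/SAM cycle turns homocysteine into methionine through the vitamin B12-dependent methionine synthase METR-1, and methionine into S-adenosylmethionine, the methyl donor for phosphatidylcholine, histones and RNA. NHR-10 is a nuclear hormone receptor that, with NHR-68, activates the propionate shunt, a vitamin B12-independent route of propionate breakdown. NHR-114 is another nuclear hormone receptor, which the study examined as an activator of Met/SAM cycle genes when flux through the cycle is low. Hermaphrodites make sperm during the last larval stage and then switch to oocytes, so sperm, oocyte, yolk protein and molting transcripts also mark developmental stage.

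Levels are read counts scaled to a library total of 1000000 (counts per 1000000, CPM), and differences are log2 changes of CPM + 1, mutant minus wild type, given with their standard error. The 4 libraries compared held between 4782988 and 15534125 reads. Calls required an adjusted p below 0.01 together with a fold over 1.5 in a limma fit over all 12 libraries of the experiment (log2 of CPM + 1, genes with at least 5 CPM in 2 libraries, Benjamini-Hochberg adjustment).

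The targeted genes were read first. The RNA of nhr-114 stood at 391 and 3.60 CPM in the mutant, against 340.3 and 2.30 CPM in wild type. In both strains the library numbered 1 was thus far above the library numbered 2, and above the same strain on vector, where nhr-114 stood at 37.4 and 33.7 CPM in the mutant, against 8.98 and 3.16 CPM in wild type. Depletion of nhr-114 could not be read from the libraries numbered 1, so the groups are named as they are labelled. Reads from nhr-10 were 22.2 and 25.9 CPM in the mutant, against 38.6 and 22.8 CPM in wild type, and the difference did not pass the test (log2 change -0.30 ± 0.34, adjusted p = 0.554). Reads from metr-1 were 130.0 and 116 CPM in the mutant, against 94.5 and 73.7 CPM in wild type (log2 change 0.55 ± 0.26, adjusted p = 0.155), and a point mutation need not lower a transcript. Libraries were made by a CEL-seq2 protocol, which counts tags near the 3' end of a transcript, so nhr-10 reads do not check a deletion elsewhere in the gene. The neuronal gene unc-119, looked at after its values were seen, had 745 and 928 CPM in the mutant, against 127 and 110.2 CPM in wild type (log2 change 2.80 ± 0.22, adjusted p = 0.00032), and 1065 and 779.7 CPM in the mutant, against 125.97 and 119.6 CPM in wild type on vector. Every strain is labelled with unc-119(+) in its transgene, and reads of the gene and of the transgene cannot be told apart. Whether the wild type libraries carried the transgene as labelled was not tested.

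Of 11543 genes tested, 597 were higher and 820 lower in the mutant than in wild type, both on nhr-114 RNAi, which is 5.17% and 7.10% of the genes and 12.3% together. The median over all genes was -0.02. In all 1417 called genes both mutant libraries lay on one side of both wild type libraries, as did 65.4% of all tested genes. Without the RNAi libraries numbered 1 the same fit called 2 genes, fat-5 and tts-1, and leaving out 1 of the 4 compared libraries gave between 329 and 566 calls. In those settings at least one strain has a single library, which is assumed to vary like the other groups. Of the named genes 73 were called. Because their groups did not overlap, leaving out a compared library could not change their direction, so a kept direction is no support.

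**Figure D1:**
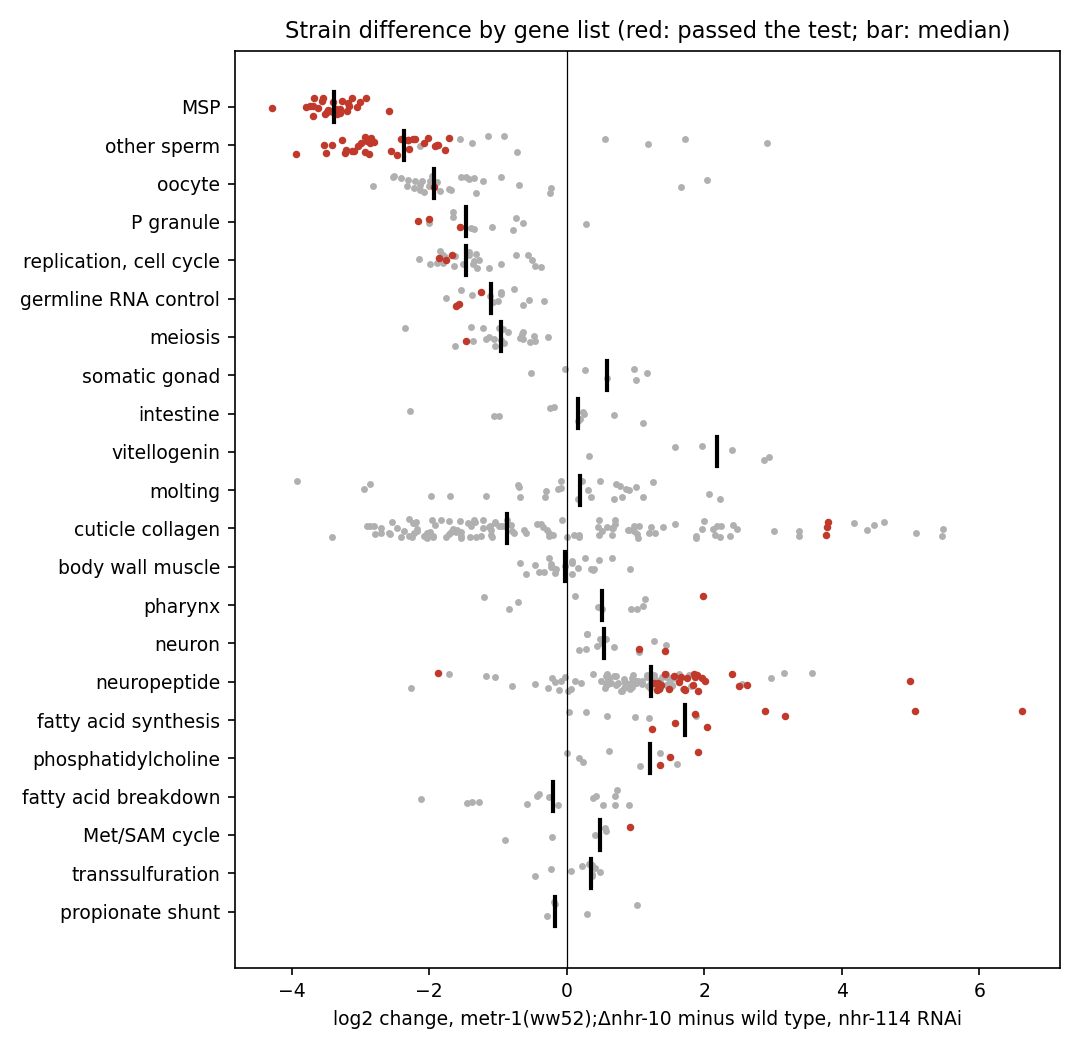
Log2 change (mutant minus wild type, nhr-114 RNAi) of every tested member of 22 gene lists, 1 point per gene. Red points passed the test, grey points did not, and the black bar is the list's median, which runs from -3.39 for MSP genes to 2.19 for vitellogenins, none of which passed.

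Genes of sperm were lower in the mutant. All 29 tested major sperm protein (MSP) genes fell, and the list's median was -3.39, beside -0.02 over all genes and 7.10% of all genes called lower. MSPs form the cytoskeleton of the crawling nematode sperm and also signal to oocytes. On vector the summed level of the MSP genes was already lower, at 2634 and 4104 CPM in the mutant, against 8227 and 7964 CPM in wild type. The list's median on vector was -1.22, and 0 of its genes were called. On nhr-114 RNAi the summed level was 395 and 591 CPM in the mutant, against 5246 and 6740.2 CPM in wild type, so the groups lay far apart. Transcript msp-64 had the largest fall, with 16.3 and 22.02 CPM in the mutant, against 327 and 457 CPM in wild type (log2 change -4.28 ± 0.42, adjusted p = 0.000448). Copies of MSP genes are nearly identical, so the reads of single members are uncertain, while the sum is less affected. Without the libraries numbered 1 the median was -3.27, and no MSP gene passed the test there.

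Of 44 tested genes of the other sperm list, 34 fell and 0 rose, with a median of -2.36, and 12 to 36 fell when 1 library was left out. Over all genes 7.10% were called lower and 5.17% higher. The phosphatase gene gsp-3, needed for sperm meiosis, fell (1.88 and 4.25 CPM, against 31.6 and 52.0 CPM in wild type, log2 change -3.42 ± 0.43, adjusted p = 0.000691). The sperm chromatin gene spch-1 was 8.57 and 9.27 CPM in the mutant, against 101 and 179.7 CPM in wild type (log2 change -3.78 ± 0.33, adjusted p = 0.000415). Both were lower in each mutant library than in each wild type library. The paternal toxin gene peel-1, packaged into sperm, fell (0.209 and 1.48 CPM, against 28.6 and 12.1 CPM in wild type, log2 change -3.51 ± 0.49, adjusted p = 0.000959). The transcription factor gene spe-44, which turns on sperm genes, fell less (3.55 and 2.70 CPM, against 11.8 and 16.8 CPM in wild type, log2 change -1.88 ± 0.41, adjusted p = 0.00855). The 4 members with a positive difference included fog-1 and fog-3, which commit germ cells to the sperm fate earlier than MSPs are made. Neither passed the test: fog-1 had 28.6 and 48.3 CPM in the mutant, against 9.81 and 11.4 CPM in wild type (log2 change 1.72 ± 0.40, adjusted p = 0.011), and fog-3 had 44.95 and 29.2 CPM in the mutant, against 15.9 and 15.05 CPM in wild type (adjusted p = 0.0667). In all 4 members, picked here for a positive difference, both mutant libraries lay above both wild type libraries, beside 32.6% of all genes. The largest of the 4 differences was 2.91, in a gene other than fog-1 and fog-3. Of the list 1 gene was called higher on vector, and 1 in Δmetr-1 animals on nhr-114 RNAi, each against wild type.

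**Figure D2:**
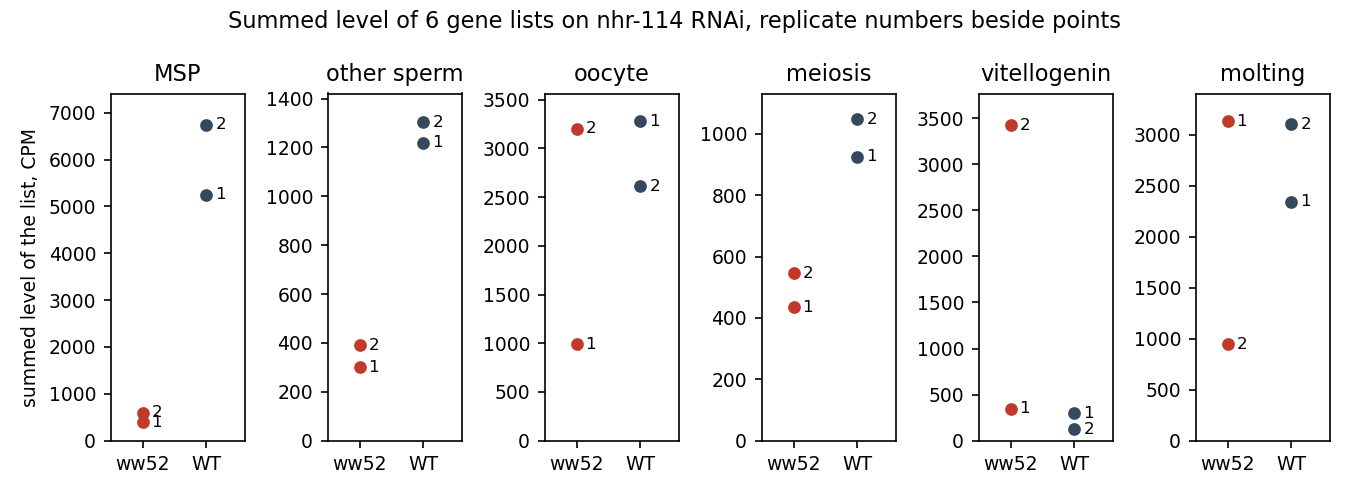
Summed level in CPM of 6 gene lists in each library on nhr-114 RNAi, with the replicate number beside each point; ww52 is metr-1(ww52);Δnhr-10 and WT is wild type, and every axis starts at 0. MSP, other sperm and meiosis sums are lower in both mutant libraries, whereas oocyte, vitellogenin and molting sums differ most between the 2 mutant libraries.

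Of the genes of germ cells themselves fewer passed the test, with medians nearer 0. Over all genes 7.10% were called lower. In the P granule list (perinuclear RNA granules that mark germ cells) 3 of 14 genes fell and 13 of 14 had both mutant libraries below both wild type libraries, beside 32.8% of all genes, with a median of -1.47. The founding component pgl-1 had 22.6 and 17.7 CPM in the mutant, against 96.7 and 88.9 CPM in wild type (log2 change -2.16 ± 0.32, adjusted p = 0.00122). The granule helicase gene glh-1 also fell (49.8 and 41.9 CPM, against 149 and 124 CPM in wild type, log2 change -1.55 ± 0.26, adjusted p = 0.00254), as did the Argonaute gene wago-4 (10.2 and 7.53 CPM, against 43.1 and 34.2 CPM in wild type, log2 change -2.01 ± 0.35, adjusted p = 0.00298). Among 16 genes for RNA-binding regulators of the germ line, 3 fell and the median was -1.098. The fallen regulators were fbf-2, a PUF protein of the stem cell niche (log2 change -1.25, adjusted p = 0.0078), nos-3 (-1.62, adjusted p = 0.00725) and daz-1 (-1.56, adjusted p = 0.00698). The translational repressor gld-1 lay just outside the call at 24.5 and 31.9 CPM, against 105 and 89.01 CPM in wild type (log2 change -1.75 ± 0.40, adjusted p = 0.0101). Of 23 tested meiosis genes, only the polo kinase gene plk-2 fell (28.02 and 30.6 CPM, against 81.1 and 84.5 CPM in wild type, log2 change -1.47 ± 0.31, adjusted p = 0.00687). That share is below the 7.10% over all genes. Of the 23 genes 22 had both mutant libraries below both wild type libraries, and the median was -0.96. The chromosome axis gene him-3 did not pass (101 and 136 CPM, against 213 and 346 CPM in wild type, adjusted p = 0.0155). These counts of calls depended on the setting while the medians stayed below 0: in the P granule list 9 fell by DESeq2 and 0 to 9 when 1 of the 12 libraries was left out. In whole animals, fewer germ cells and less RNA per germ cell cannot be told apart.

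Of 33 tested oocyte genes, the germline Y-box gene cey-3 fell (70.7 and 117 CPM, against 353 and 344 CPM in wild type, log2 change -1.92 ± 0.35, adjusted p = 0.00365), 0 rose and the median was -1.92. On vector the median of the oocyte list was -1.39, and 0 of its genes were called. On nhr-114 RNAi both mutant libraries lay below both wild type libraries in 30 of the 33, beside 32.8% of all genes. The share called was below the 7.10% over all genes. DESeq2 called 10 of the list lower, and leaving out 1 library gave 0 to 16. The eggshell gene cbd-1 was at 22.8 and 27.2 CPM, against 237 and 138 CPM in wild type (adjusted p = 0.0404), and the oocyte regulator oma-1 at 21.3 and 29.2 CPM, against 128 and 100.1 CPM in wild type (adjusted p = 0.0271). Both were low in each mutant library without passing the test. The eggshell permeability genes perm-2 and perm-4 stood apart from the list. Transcript perm-4 had 203 and 1345 CPM in the mutant, against 99.5 and 161 CPM in wild type, and perm-2 had 127 and 864 CPM in the mutant, against 99.2 and 110.2 CPM in wild type, and neither difference passed (adjusted p = 0.224 and 0.378). The high values were those of mutant replicate 2. Of 28 replication and cell cycle genes 3 fell, with a median of -1.46: the Aurora A kinase gene air-1 (60.6 and 52.8 CPM, against 234 and 186 CPM in wild type, log2 change -1.86 ± 0.31, adjusted p = 0.00237), the centromeric histone gene hcp-3 (log2 change -1.75, adjusted p = 0.00501) and the DNA polymerase alpha subunit gene div-1 (-1.66, adjusted p = 0.00524). The replication count was 15 by DESeq2, 8 with the replicate block and 0 to 16 leaving out 1 library. Of 27 tested histone genes 1 fell, a share below that over all genes: his-70, a variant H3 gene (2.09 and 2.12 CPM, against 16.97 and 21.6 CPM in wild type, log2 change -2.70 ± 0.32, adjusted p = 0.000583).

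Lists of stage were uneven between the 2 mutant libraries. The 6 vitellogenin genes, which encode yolk proteins made by the intestine of adults, summed to 345 and 3423 CPM in the mutant, against 295 and 125 CPM in wild type, and 0 of 6 passed the test (also 0 at an unadjusted p under 0.05, by edgeR and by DESeq2). Transcript vit-2 alone had 127 and 1267 CPM in the mutant, against 115 and 49.4 CPM in wild type (adjusted p = 0.332). The 30 tested molting genes, whose transcripts cycle within each larval stage, summed to 3131 and 947 CPM in the mutant, against 2343 and 3102 CPM in wild type, and 0 passed, with 5 at an unadjusted p under 0.05, 0 by edgeR and 1 by DESeq2. Mutant replicate 2 thus had the highest yolk and the lowest molting level of the 4 libraries. Of 129 tested cuticle collagen genes 3 rose and 0 fell, a share below the 5.17% over all genes, beside a list median of -0.86. DESeq2 called 16 higher and 4 lower, the fit with the replicate block 1 higher, and leaving out 1 library gave 0 to 20 higher with medians between -1.61 and 0.03. The 3 were col-98 (871 and 1968 CPM, against 56.4 and 157 CPM in wild type, log2 change 3.78 ± 0.74, adjusted p = 0.00782), col-103 (log2 change 3.80) and col-42 (3.77), each high in both mutant libraries. Without the libraries numbered 1 the collagen median was -1.82, the molting median -0.95 and the vitellogenin median 4.48. The study noted slowed development of Met/SAM cycle mutants on this clone, and the part of stage in the germline and somatic differences was not tested.

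Markers of other somatic tissue differed less. In body wall muscle 0 of 23 tested genes were called (2 at an unadjusted p under 0.05, 0 by edgeR and by DESeq2), with a median of -0.03, and the summed level was 23990.4 and 21678 CPM in the mutant, against 18112 and 25155 CPM in wild type. The myosin genes unc-54, the main body wall heavy chain, and myo-2 of the pharynx were detected in every library, at 2041 and 660.3 CPM, against 1499 and 1110.1 CPM in wild type, and at 74.0 and 73.5 CPM, against 63.98 and 44.6 CPM in wild type. In the pharynx list, phat-3, a gland gene, rose (6.27 and 12.2 CPM, against 1.71 and 1.26 CPM in wild type, log2 change 1.99 ± 0.38, adjusted p = 0.00441) as 1 of 11, beside 5.17% of all genes. In the somatic gonad list 0 of 7 were called (2 at an unadjusted p under 0.05, 0 by edgeR and by DESeq2), and the summed level of its members was 287 and 301 CPM in the mutant, against 217 and 193 CPM in wild type. In 5 of the 7 both mutant libraries lay above both wild type libraries, and in 0 below, beside 32.6% and 32.8% of all genes. The intestine list held members on either side, with 0 of 11 called by limma (3 at an unadjusted p under 0.05, 0 by edgeR and 1 by DESeq2): the GATA factor gene elt-2 was higher without passing (63.98 and 59.5 CPM, against 28.6 and 27.6 CPM in wild type, adjusted p = 0.0224), while the esterase gene ges-1 was lower without passing (16.9 and 17.4 CPM, against 34.1 and 40.2 CPM in wild type, adjusted p = 0.0525).

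Many neuropeptide genes were higher. Of 113 tested neuropeptide genes 25 rose and nlp-4 alone fell, and the list's median was 1.23, with 5.17% of all genes called higher. The FMRFamide-like peptide gene flp-18 had 322 and 388 CPM in the mutant, against 63.4 and 50.99 CPM in wild type (log2 change 2.62 ± 0.35, adjusted p = 0.000868), and flp-17 had 78.4 and 77.3 CPM in the mutant, against 10.6 and 15.7 CPM in wild type (log2 change 2.50 ± 0.26, adjusted p = 0.000448). Each was several times higher in both mutant libraries. The insulin-like gene ins-20 was at 38.7 and 37.02 CPM, against 0.311 and 0.148 CPM in wild type, where each wild type library was under the level of 3 reads (adjusted p = 0.00107). Of 14 neuron genes 2 rose: the synaptobrevin gene snb-1 (517 and 584 CPM, against 244 and 289 CPM in wild type, log2 change 1.046 ± 0.19, adjusted p = 0.00333) and sbt-1, a chaperone for the neuropeptide convertase (144 and 179 CPM, against 70.4 and 49.7 CPM in wild type, log2 change 1.43 ± 0.29, adjusted p = 0.00631). All 14 differences were positive, with a median of 0.55, although rab-3, another synaptic vesicle gene, was at 47.0 and 63.2 CPM, against 38.9 and 38.2 CPM in wild type and did not pass (adjusted p = 0.296). Without the libraries numbered 1 the neuropeptide median was 1.35 and the neuron median 0.76, and no gene of either list passed. Leaving out 1 library gave 2 to 45 neuropeptide genes higher, and DESeq2 51.

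Genes called in the lists of intestinal defence and digestion lay in both directions, beside 5.17% higher and 7.10% lower over all genes. The invertebrate-type lysozyme gene ilys-5 fell (115 and 94.2 CPM in the mutant, against 885 and 1049 CPM in wild type, log2 change -3.20 ± 0.27, adjusted p = 0.000382). The lysozyme gene lys-8 fell as well (144 and 151 CPM, against 436 and 502 CPM in wild type, log2 change -1.66 ± 0.29, adjusted p = 0.00298), whereas the saposin-like gene spp-14 rose (433 and 582 CPM, against 158 and 185 CPM in wild type, log2 change 1.55 ± 0.24, adjusted p = 0.00168). Of 33 tested genes of this list 2 rose and 4 fell, shares not far from those over all genes. Among 65 tested C-type lectin genes 7 fell and clec-52 rose (10.9 and 19.5 CPM, against 0.778 and 0.296 CPM in wild type, log2 change 3.36 ± 0.40, adjusted p = 0.000597). The aspartyl protease gene asp-2 fell (128 and 121 CPM, against 268 and 269.9 CPM in wild type, log2 change -1.101 ± 0.21, adjusted p = 0.00475), and the cathepsin B-like gene cpr-3 rose (132 and 230.5 CPM, against 40.5 and 70.1 CPM in wild type, adjusted p = 0.00977). The call of cpr-3 was lost in 19 and that of asp-2 in 11 of 26 alternatives, edgeR included, which called 0 of the 13 digestive protease genes. Of 96 tested cytochrome P450, UDP-glucuronosyltransferase and glutathione S-transferase genes, the detoxification families, 9 rose and 0 fell. The largest called rise among them was that of ugt-13 (124 and 119 CPM, against 6.85 and 12.8 CPM in wild type, log2 change 3.56 ± 0.50, adjusted p = 0.00102), followed by cyp-33C8 (25.5 and 58.4 CPM, against 4.05 and 2.59 CPM in wild type, log2 change 3.22 ± 0.43, adjusted p = 0.000846) and gst-41 (log2 change 2.85). The list's median was 0.38.

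The main metabolic difference was in fatty acid desaturation. Of 14 tested genes of fatty acid synthesis 8 rose and 0 fell, all 14 differences were positive and the median was 1.72, beside 5.17% of all genes called higher and a median of -0.02. Leaving out 1 library gave 3 to 9 calls, and DESeq2 10. The palmitoyl-CoA desaturase gene fat-5 had the largest rise of all called genes, with 641 and 1721 CPM in the mutant, against 10.6 and 8.82 CPM in wild type (log2 change 6.62 ± 0.62, adjusted p = 0.000448). The stearoyl-CoA desaturase gene fat-7 had 423 and 1514 CPM in the mutant, against 25.7 and 20.7 CPM in wild type (log2 change 5.06 ± 0.85, adjusted p = 0.00426). Both were high in each mutant library and highest in replicate 2. Its close relative fat-6 also rose (3476 and 4221 CPM, against 399.6 and 674 CPM in wild type, log2 change 2.88 ± 0.45, adjusted p = 0.00213). Further along the route to polyunsaturated fatty acids, the desaturase gene fat-2, which makes linoleic acid, had 1348 and 1515 CPM in the mutant, against 157 and 158 CPM in wild type (log2 change 3.18 ± 0.22, adjusted p = 0.000243). The replicates of each strain lay close together. The desaturase genes fat-3 (586 and 647 CPM, against 127 and 173 CPM in wild type, log2 change 2.05 ± 0.25, adjusted p = 0.000622) and fat-4 (981 and 1407 CPM, against 395 and 391 CPM in wild type, log2 change 1.58 ± 0.23, adjusted p = 0.00114) rose, as did the elongase genes elo-2 (log2 change 1.86) and elo-1 (1.23). The omega-3 desaturase gene fat-1 (1.19, adjusted p = 0.0142), the acetyl-CoA carboxylase gene pod-2 (1.87, adjusted p = 0.031) and the fatty acid synthase gene fasn-1 (0.99, adjusted p = 0.0337) did not pass. The branched-chain elongase genes elo-5 and elo-6 had log2 changes of 0.27 and 0.03. The strain difference of fat-2 also passed on vector (1.67, adjusted p = 0.00785), where fat-5 was at 2.81 (adjusted p = 0.115) and fat-7 at 2.12 (adjusted p = 0.348). Without the libraries numbered 1 the list's median was 1.87, and fat-5 kept its call.

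**Figure D3:**
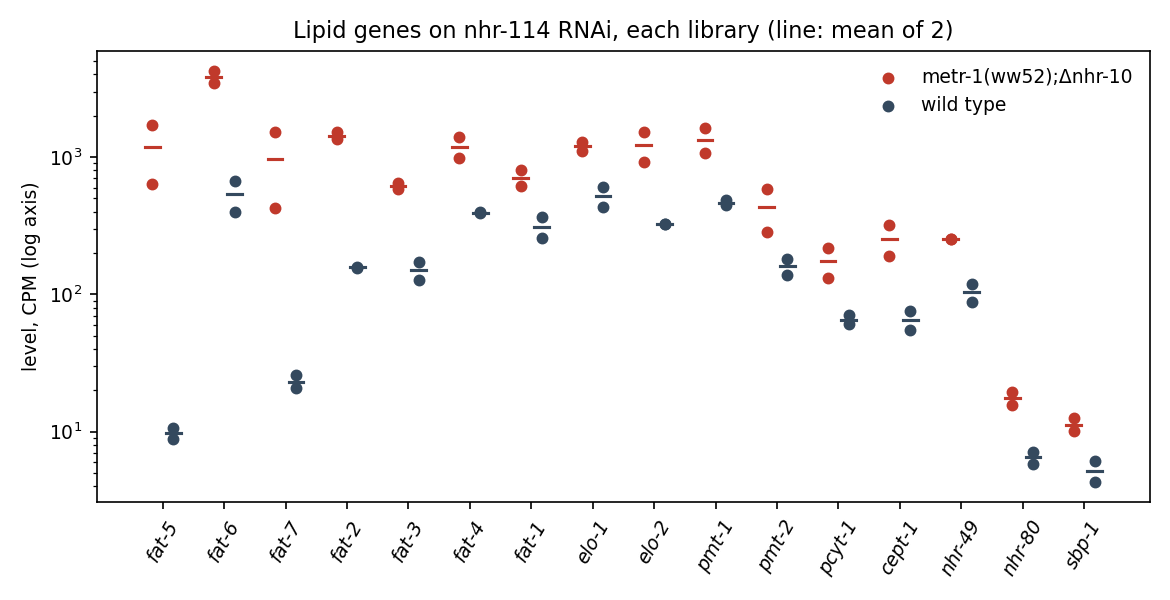
Level in CPM, on a log axis, of 16 genes of fatty acid desaturation and elongation, phosphatidylcholine synthesis and their regulators in each library on nhr-114 RNAi, mutant left and wild type right, with a line at the mean of 2 libraries. In every gene drawn both mutant points lie above both wild type points, but the genes drawn are a selection. The regulator mdt-15, whose groups overlap, and elo-5 and elo-6 are not drawn. Over the whole lists this holds for 12 of 14 fatty acid synthesis, 8 of 10 phosphatidylcholine and 4 of 9 regulator genes, beside 32.6% of all tested genes.

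Phosphatidylcholine is made in C. elegans either from choline or by methylation of phosphoethanolamine, which consumes S-adenosylmethionine. Of the 10 genes of both routes 3 rose, beside 5.17% of all genes, 0 fell, and the median was 1.21. The median lay between 0.81 and 1.54 when 1 library was left out, and edgeR and DESeq2 each called 3 higher. The call of pcyt-1 was lost in 12 of 26 alternatives, that of pmt-1 in 5 and that of cept-1 in 4. The methyltransferase gene pmt-1, first in the methylation route, had 1069.8 and 1617 CPM in the mutant, against 486 and 446 CPM in wild type (log2 change 1.497 ± 0.28, adjusted p = 0.00429). The gene pcyt-1, for the step from phosphocholine to CDP-choline, rose (132 and 217 CPM, against 60.4 and 70.3 CPM in wild type, log2 change 1.36 ± 0.28, adjusted p = 0.00632), as did cept-1, for the last step (189 and 319 CPM, against 75.2 and 55.2 CPM in wild type, log2 change 1.91 ± 0.30, adjusted p = 0.00162). The later methyltransferase gene pmt-2 lay higher without passing (286 and 581 CPM, against 139 and 182 CPM in wild type, adjusted p = 0.0259). Among regulators of lipid genes, the nuclear hormone receptor gene nhr-49, an activator of fat-7, rose (253 and 253 CPM, against 118 and 88.1 CPM in wild type, log2 change 1.301 ± 0.24, adjusted p = 0.0035). Its partner nhr-80 was at 15.7 and 19.5 CPM, against 7.16 and 5.86 CPM in wild type (adjusted p = 0.0161), the SREBP gene sbp-1 at 10.04 and 12.5 CPM, against 6.07 and 4.30 CPM in wild type (adjusted p = 0.0344), and the Mediator gene mdt-15 at 118 and 98.3 CPM, against 108 and 67.2 CPM in wild type (adjusted p = 0.421). Of 9 regulators listed, nhr-49 alone passed. In fatty acid breakdown 0 of 16 tested genes were called, with 5 at an unadjusted p under 0.05, 1 by edgeR and 3 lower by DESeq2. The peroxisomal acyl-CoA oxidase genes acox-1.2 (3.14 and 4.44 CPM, against 23.2 and 16.5 CPM in wild type, adjusted p = 0.0153) and acox-1.4 (10.9 and 9.91 CPM, against 39.7 and 22.98 CPM in wild type, adjusted p = 0.0126) were lower without passing.

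Met/SAM cycle genes differed little between the strains on nhr-114 RNAi. Of 6 genes 1 rose, beside 5.17% of all genes called higher. It was ahcy-1, for S-adenosylhomocysteine hydrolase, with 3184 and 3371 CPM in the mutant, against 1645 and 1822 CPM in wild type (log2 change 0.92 ± 0.20, adjusted p = 0.00752). That call was lost in 19 of 26 alternatives, edgeR and DESeq2 included, while the log2 change stayed between 0.85 and 0.99. The methionine synthase reductase gene mtrr-1 had 32.8 and 31.2 CPM in the mutant, against 44.4 and 31.4 CPM in wild type, with overlapping groups (adjusted p = 0.608). The methylenetetrahydrofolate reductase gene mthf-1 had 172 and 168 CPM in the mutant, against 107 and 121 CPM in wild type (adjusted p = 0.0791). The S-adenosylmethionine synthetase gene sams-1 was at 289.6 and 212 CPM, against 213 and 162 CPM in wild type, and the serine hydroxymethyltransferase gene mel-32 at 55.0 and 84.7 CPM, against 148 and 111 CPM in wild type, neither of them called (adjusted p = 0.433 and 0.0532). The list's median was 0.48. Of 5 linked genes 0 were called, 1 having an unadjusted p under 0.05, and edgeR and DESeq2 called 0. They were msra-1 and the ABC transporter gene pmp-5, with log2 changes of -0.47 and -0.74, and the further S-adenosylmethionine synthetase genes sams-3 (0.30), sams-4 (0.73) and sams-5 (0.30).

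On vector, where no library is shared with the comparison on nhr-114 RNAi, the same strains differed in 30 genes, 0.260% of those tested, 28 of them higher. The Met/SAM median was 2.24 there. Gene mtrr-1 had 317 and 217 CPM in the mutant, against 36.1 and 37.1 CPM in wild type, a log2 change of 2.81 (adjusted p = 0.00173), and mthf-1 had 837 and 716 CPM in the mutant, against 88.7 and 117 CPM in wild type (2.91, adjusted p = 0.000375). In the mutant on nhr-114 RNAi these transcripts were thus nearer to wild type levels. The test of the difference between the strain differences called 2 genes (0.0173%), both lower on nhr-114 RNAi. They were msra-1, a methionine sulfoxide reductase gene, and ilys-5. Gene msra-1 had 57.9 and 41.0 CPM in the mutant, against 81.3 and 56.8 CPM in wild type on nhr-114 RNAi, and 1317 and 768 CPM in the mutant, against 48.4 and 58.5 CPM in wild type on vector (interaction -4.69, adjusted p = 0.00793). The interaction of mtrr-1 was -3.02 (adjusted p = 0.021), that of mthf-1 -2.34 (0.021) and that of metr-1 -2.41 (0.0344), none of them called at 0.01. At an unadjusted p under 0.05 the interaction passed in 2255 genes.

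**Figure D4:**
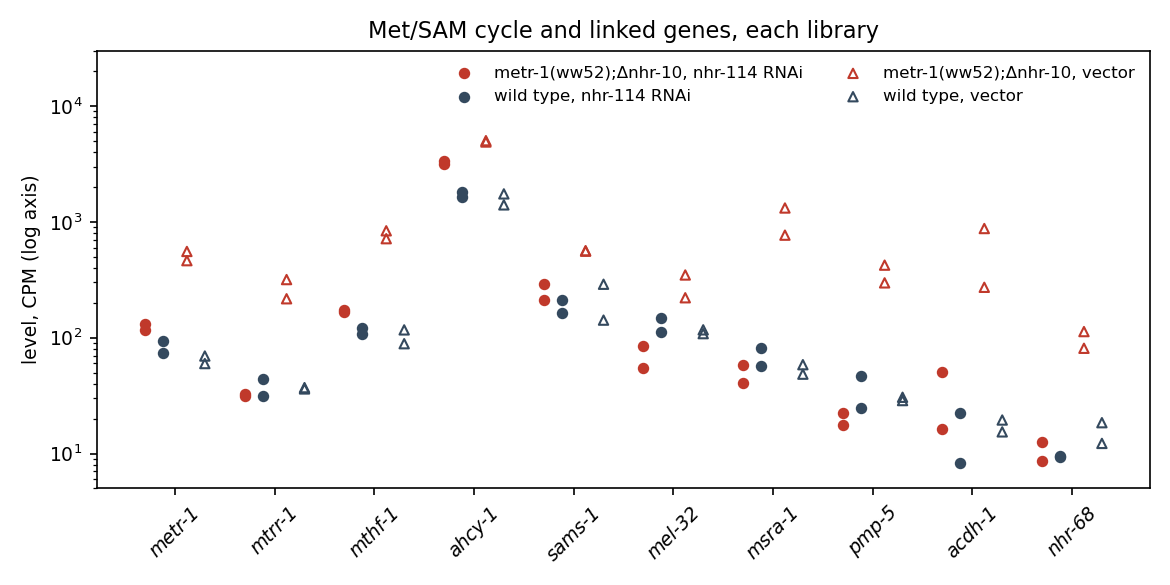
Level in CPM, on a log axis, of 10 Met/SAM cycle and linked genes in each library. Filled circles are nhr-114 RNAi and open triangles vector, red the mutant and dark blue wild type; for metr-1, mtrr-1, mthf-1, msra-1 and pmp-5 the mutant stands far above wild type on vector and near it on nhr-114 RNAi.

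Other parts of sulfur and one-carbon metabolism gave no call on nhr-114 RNAi. In transsulfuration 0 of 10 tested genes were called, also 0 at an unadjusted p under 0.05, by edgeR and by DESeq2, with a median of 0.35. The cystathionine beta-synthase gene cbs-1 was at 77.6 and 70.3 CPM, against 53.4 and 61.2 CPM in wild type (adjusted p = 0.393), and the cystathionine gamma-lyase gene cth-2 at 241 and 446 CPM, against 214 and 299 CPM in wild type (adjusted p = 0.369). Of 14 folate genes 0 were called (4 at an unadjusted p under 0.05, 0 by edgeR and 1 by DESeq2), the nearest being the folate transporter gene folt-1 (6.27 and 11.5 CPM, against 1.87 and 2.59 CPM in wild type, adjusted p = 0.0132). In the propionate shunt 0 of 5 were called, also 0 at an unadjusted p under 0.05, by edgeR and by DESeq2. Its first gene acdh-1, whose promoter is also in the transgene, had 50.4 and 16.4 CPM in the mutant, against 22.4 and 8.23 CPM in wild type (adjusted p = 0.295), with overlapping groups. On vector it had 876 and 272 CPM in the mutant, against 15.4 and 19.5 CPM in wild type. The regulator nhr-68 was at 12.5 and 8.56 CPM, against 9.34 and 9.56 CPM in wild type (adjusted p = 0.842). The lists of respiratory chain and ribosomal protein genes had medians of -0.33 and -0.16, with 2 of 36 and 1 of 76 tested genes higher and 0 and 2 lower. These shares are near or below the 5.17% higher and 7.10% lower over all genes. The 3 listed genes that rose, nuo-1, sdhd-1 and rps-9, lie close together on chromosome II, as described further on. The ribosomal protein gene rpl-36.A, missing from the list, lies there too and was also called higher (log2 change 1.4995, limma adjusted p = 0.0024).

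The 12 largest rises above 20 CPM held the lipid genes fat-5 and fat-7 and 10 genes of other kinds. The noncoding RNA tts-1, a ribosome-associated transcript known from long-lived worms, had 998 and 1334 CPM in the mutant, against 28.5 and 20.5 CPM in wild type (log2 change 5.52 ± 0.34, adjusted p = 0.000163). Transcript Y37H2A.14 had 423 and 629 CPM in the mutant, against 5.92 and 8.08 CPM in wild type (log2 change 6.03 ± 0.54, adjusted p = 0.000448), and the Arf-like GTPase gene warf-1 had 661 and 1076 CPM in the mutant, against 23.04 and 13.2 CPM in wild type (log2 change 5.51 ± 0.78, adjusted p = 0.00183). A lack of overlap between strains was a condition for entering this set of 12. The Rab GTPase gene rab-11.2 was at 55.8 and 28.8 CPM, against 0 and 0.0741 CPM in wild type, and sdz-35 at 32.6 and 61.3 CPM, against 0.156 and 0.148 CPM in wild type, at or under the level of 3 reads in wild type (0.187 to 1.18 CPM over the 12 libraries). The others were F11D11.3, F48C1.9, T07H8.11, F22E5.6 and F33H12.7, with log2 changes of 5.78, 5.46, 5.27, 5.25 and 5.06, which depend on the added 1 CPM where wild type was below it. The 12 largest falls included 4 MSP genes (msp-64, msp-113, msp-3 and msp-19), the MSP-related genes msrp-5 (-3.96) and msrp-6 (-3.98), nspd-2 (-3.94) and spch-1 (-3.78). The rest were T23G11.1, C17H12.8, C17F3.1 and C04G6.2, between -3.86 and -3.73. A pair of genes low in the mutant on vector fell here as well: sysm-1, with 0.836 and 1.48 CPM in the mutant, against 22.4 and 17.4 CPM in wild type (log2 change -3.28 ± 0.40, adjusted p = 0.000638), and ZK896.5, with 30.5 and 32.6 CPM in the mutant, against 95.3 and 80.5 CPM in wild type (log2 change -1.44 ± 0.33, adjusted p = 0.00991), a call lost in 14 of 26 alternatives. On vector their log2 changes were -4.07 and -2.66.

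The Δmetr-1 strain on the same clone allowed a comparison with another metr-1 mutant in which nhr-10 is intact. Between metr-1(ww52);Δnhr-10 and Δmetr-1 animals, both on nhr-114 RNAi, 0 genes were called by limma (0.00%), while 361 had an unadjusted p under 0.05, edgeR called 0 and DESeq2 18. Because each metr-1 mutant was set against the same wild type libraries, their differences from wild type are given side by side only. The log2 change was 6.62 in metr-1(ww52);Δnhr-10 and 6.10 in Δmetr-1 for fat-5, 5.06 and 5.16 for fat-7, -4.28 and -4.75 for msp-64, -2.16 and -2.78 for pgl-1, and 2.62 and 2.59 for flp-18. Against wild type, Δmetr-1 animals had 678 genes higher and 1154 lower (5.87% of those tested for the higher genes, 15.9% together). For sysm-1 the values were -3.28 and 0.30.

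On the X chromosome 108 of 1568 tested genes rose and 7 fell (6.89% and 0.446%), with a median of 0.45. On the autosomes 489 of 9956 rose and 813 fell (4.91% and 8.17%), with a median of -0.09. On vector the medians were 0.22 on the X chromosome and -0.0072 on the autosomes. Germline-expressed genes are rare on the X chromosome of C. elegans, and most sperm genes are autosomal. The part of the germ line in the difference between X and autosomes was not tested.

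One stretch of chromosome II stood out when the genes were taken in bins of 100000 base pairs, an inspection made after the values were seen and given without a test. Positions are those of the Ensembl release 115 annotation of WBcel235, 1-based. The bins from 11000001 to 11100000 and from 11100001 to 11200000 had median log2 changes of 1.02 and 0.76 on nhr-114 RNAi, and of 1.08 and 1.03 on vector. They were the first and second of 733 bins when ranked by the lowest of 4 medians, those of the mutant minus wild type and minus Δmetr-1 on each clone. Gene metr-1 lies on chromosome II, and the stretch starts 68923 base pairs after the annotated end of metr-1. The counts and medians of the stretch given below come from the values by which it was picked. They describe the stretch and do not test it. Of its 31 tested genes 11 rose on nhr-114 RNAi and 0 fell, beside 5.17% and 7.10% of all genes. On vector 2 were called, beside 0.260% of all genes. Differences were positive for 27 genes on nhr-114 RNAi and 28 on vector. The median over the 31 genes was 0.88 on nhr-114 RNAi, against -0.11 over the rest of chromosome II, and 1.08 against -0.01 on vector.

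Several genes of the stretch have appeared in the lists above. The Y-box gene cey-1 had 2046 and 2065 CPM in the mutant, against 627 and 703 CPM in wild type (log2 change 1.63 ± 0.18, adjusted p = 0.000488), and on vector 1970.0 and 2260.3 CPM in the mutant, against 635 and 628 CPM in wild type. The complex I gene nuo-1 had 373 and 387 CPM in the mutant, against 191 and 172 CPM in wild type (log2 change 1.06 ± 0.20, adjusted p = 0.00366), and the succinate dehydrogenase gene sdhd-1 had 949 and 1148 CPM in the mutant, against 436 and 545 CPM in wild type (log2 change 1.097 ± 0.21, adjusted p = 0.00471). In each of these genes both mutant libraries were well above both wild type libraries. The ribosomal protein genes rps-9 (log2 change 1.11) and rpl-36.A (1.4995) lie there as well, as do the neuropeptide gene nlp-18 (2.41) and the transcription factor gene pqm-1 (2.79). For nuo-1 the log2 change was 1.06 in metr-1(ww52);Δnhr-10 and -0.24 in Δmetr-1 animals, both against wild type, and for rps-9 it was 1.11 and -0.24. Other called genes of the stretch, such as pqm-1 and ptr-13, were higher than wild type in Δmetr-1 animals too. On nhr-114 RNAi pqm-1 had 144 and 161 CPM in Δmetr-1 animals, against 64.4 and 38.3 CPM in wild type. For ptr-13 the values were 35.0 and 39.0 CPM, against 6.23 and 4.15 CPM. In 22 of the 31 genes all 4 differences used for the ranking were positive. Relative to each gene's mean over the 8 libraries of the other strains, the median over the stretch was 0.97 and 0.92 in the mutant on nhr-114 RNAi and 1.17 and 1.14 on vector, while the libraries of the other strains lay between -0.24 and 0.17. What underlies the raised levels of the stretch was not tested.

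**Figure D5:**
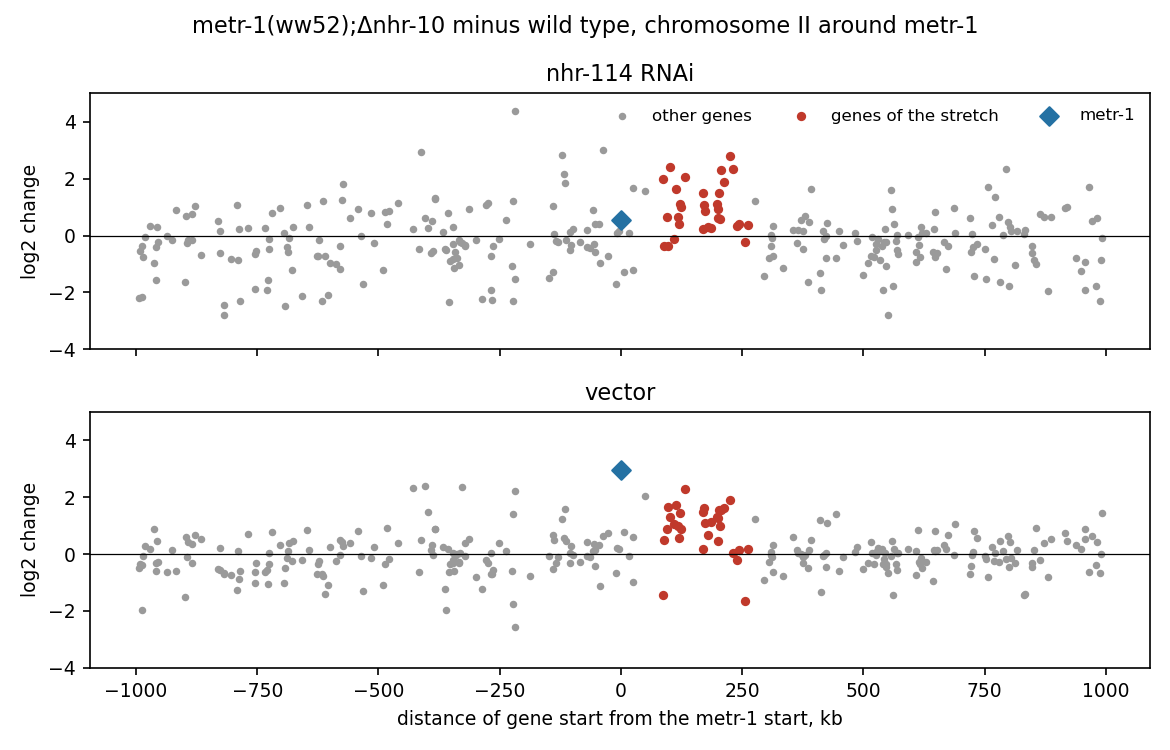
Log2 change (mutant minus wild type) of tested genes around metr-1 on chromosome II, on nhr-114 RNAi above and on vector below, against the distance from the metr-1 start in kb. Genes of the stretch are red and lie mostly above 0 on both clones, and metr-1 is the blue diamond.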

How the data were processed

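The members and gene lists were chosen with earlier results of these data known. Per the study's methods and labels, the authors sequenced RNA of staged whole animals, trimmed reads with Trimmomatic 0.32 and aligned them with STAR (version not given in the sources used here). CEL-seq2 libraries, which carry unique molecular identifiers, were counted near transcript 3' ends by ESAT against the WormBase WS271 gene set without pseudogenes. They deposited a table of 39341 genes in CPM, although its name says TPM: every library sums to 1000000 and 100% of values are whole reads within 0.01 read. The 12 libraries of this experiment held 2542155 to 16025927 reads, so 3 reads correspond to 0.187 to 1.18 CPM (counting error only).

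The 11543 genes that reached 5 CPM in 2 or more of 12 libraries were tested on log2(CPM + 1), which understates changes of low genes, with limma 3.58.1 (trend and robust, R 4.3.3) over 6 groups of 2 biological duplicates. A call needed a Benjamini-Hochberg adjusted p under 0.01 and a fold over 1.5. Standard errors are limma's. Count tests on recovered reads (edgeR 4.0.16, DESeq2 1.42.0), other scalings, filters, pseudocounts, sample sets, left-out libraries and the replicate block were alternatives. On simulated data for the main comparison over 11543 genes limma recovered 86% of genes changed 8-fold and 43% of those changed 4-fold.

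Named genes were the targeted genes, every measured member of the Met/SAM, linked, transsulfuration, propionate shunt and regulator lists, the 12 largest rises and 12 largest falls among called genes at 20 CPM or more without overlap, up to 3 genes of lowest p from each other list, sysm-1 and ZK896.5, and up to 5 called interactions. Other genes named in the text were chosen after their values were seen. Positions come from Ensembl release 115 of WBcel235, used for names, neighbours and the chromosome II bins.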

Additional observations from a re-analysis of the deposited data

Results flagged for a closer look

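The difference between the strains changed with the clone eaten, by the limma interaction test, in 2 genes. For msra-1 the interaction was -4.686 (adjusted p = 0.00793), from 57.9 and 41.0 CPM in the mutant, against 81.3 and 56.8 CPM in wild type on nhr-114 RNAi, and 1317 and 768 CPM in the mutant, against 48.4 and 58.5 CPM in wild type on vector. For ilys-5 it was -3.786 (adjusted p = 0.00912), from 115 and 94.2 CPM in the mutant, against 885 and 1049 CPM in wild type on nhr-114 RNAi, and 1418 and 1359 CPM in the mutant, against 847 and 1004 CPM in wild type on vector. In both genes the 4 libraries of each clone were ordered without overlap between strains, except that msra-1 on nhr-114 RNAi overlapped. The call of msra-1 was lost in 14 and that of ilys-5 in 16 of 25 alternatives, with adjusted p up to 0.125.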

How the results depend on the processing

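The count of 1417 genes on nhr-114 RNAi became 763 with only the libraries compared, 2280 with DESeq2, 2901 at an adjusted p under 0.05, and 2 without the RNAi libraries numbered 1, an alternative chosen after seeing the data. Leaving out 1 of the 12 libraries gave 329 to 2051. The lowest were 329 without wild type RNAi replicate 2, 415 without mutant RNAi replicate 2, 492 without wild type RNAi replicate 1 and 566 without mutant RNAi replicate 1, each with a lone library assumed to vary like the other groups. The share of higher genes, 42.1%, was 49.8% with DESeq2, 50.5% at an adjusted p under 0.05, and 24.3% without mutant RNAi replicate 2, so the excess of lower genes depends on the threshold and the tool. edgeR called 1367, of which 1265 were shared with limma. The 30 genes on vector became 281 with only the libraries compared, 15 with edgeR, 135 with DESeq2, 75 at an adjusted p under 0.05, 0 without the RNAi libraries numbered 1, and 0 to 45 leaving out 1 library. The 2 interaction calls became 43 with only the libraries compared, 1 with median-of-ratios scaling, 0 with TMM scaling, 0 with neither trend nor robust, 0 with edgeR, 478 with DESeq2, 184 at an adjusted p under 0.05, 0 without the RNAi libraries numbered 1, 56 without both Δmetr-1 vector libraries (chosen after seeing the data), and 0 to 66 leaving out 1 library. Against Δmetr-1 the 0 calls became 18 with DESeq2, 3 at an adjusted p under 0.05, and 0 to 0 leaving out 1 library.

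Of the 73 named calls 65 were called by edgeR and 71 by DESeq2. All 73 kept their sign in every alternative. For left-out libraries this was fixed in advance, because the groups of called genes did not overlap. Of the named genes 13 changed sign in some alternative, 0 of them called, and 10 of the 13 had a main difference smaller than its standard error. For the others, leaving out 1 library, cth-2 lay between -0.071 and 0.82 (lowest without mutant RNAi replicate 2), mdt-15 between -0.0024 and 0.67 (lowest without wild type RNAi replicate 2) and sams-3 between -0.072 and 0.67 (lowest without wild type RNAi replicate 1), and sams-3 was -0.30 without the RNAi libraries numbered 1. Of 34 list medians 13 changed sign in some alternative. The cause of these shifts was not tested. Depth of 4782988 to 15534125 reads limits genes near 1 CPM.

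With the replicate block the counts were 1510, 25, 1 and 0 in the same order, 1337 of the first being shared with the fit without it, and 70 of the 73 named calls held. The deviations of same-numbered mutant and wild type RNAi libraries correlated at 0.0713, and 15 pairs of groups ranged between -0.467 and 0.681 with 6 over 0.1, so the numbers were not taken to pair the samples. The RNAi libraries of mutant and Δmetr-1 with the same number did deviate together (0.681), as did wild type on vector and on RNAi (0.523), and nhr-114 was high in each RNAi library numbered 1.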

Other observations

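Gene families taken by the stem of their name, after the values were seen, gave further groups. Of 57 tested fbxa genes, which encode F-box proteins of a family expanded in nematodes, 18 rose in the mutant on nhr-114 RNAi and 0 fell, with a median log2 change of 1.14. Of 44 ttr genes, which encode transthyretin-related secreted proteins, 10 rose and 2 fell, with a median of 1.29. Of 121 nuclear hormone receptor (nhr) genes 14 rose and 0 fell (median 0.93), and of 11 skr genes, for Skp1-related ubiquitin ligase subunits, 4 rose and 1 fell. Over all tested genes 5.17% rose and 7.10% fell.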
